A study of Mus musculus with 4 samples.

Results

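Transcripts of 10 planar cell polarity genes were followed in E14.5 cochlear ducts of mouse embryos with a Sox2-driven, tamoxifen-induced deletion of Tbx2. The genes were Vangl1, Vangl2, Celsr1, Celsr2, Celsr3, Prickle1, Prickle2, Ptk7, Ror2 and Dvl2, chosen by symbol from the 29924 gene names on the array. All 10 were on the array, with 15 probes between them, and 9 of them could be tested. Celsr3 transcript was lower in the mutant pools, at 63.7% of the control level. None of the other 8 tested genes passed the test, and the widest reach of their 95% intervals was a 1.15-fold difference.

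Each of 4 arrays set a pool of Sox2-Tbx2LOF cochlear ducts against a pool of control ducts of the same sex, which gave 4 mutant and 4 control pools. Mutant embryos carried the genotype Sox2(creERT2);Tbx2(fl/fl), in which a tamoxifen-dependent Cre recombinase is made where Sox2 is active and deletes a loxP-flanked Tbx2. Controls are labelled Tbx2(fl/n.d.) and carried no Cre by the methods. All embryos were of the NMRI strain, and all dams received 4 mg of tamoxifen by mouth at E12.5. Female pools were hybridised on arrays 1 and 2 and male pools on arrays 3 and 4. The dyes were swapped within each sex: Cy5 marked the mutant on the odd-numbered arrays (1 and 3) and Cy3 on the even-numbered ones. Since only the mutants carried Cre, effects of Cre and of the loss of Tbx2 cannot be told apart. A pool holds every cell of the dissected duct, whereas Cre acts only in cells with Sox2. The spiral ganglion had been removed by the methods. Because these are bulk samples, fewer cells of a type and less RNA per cell cannot be told apart.

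Planar cell polarity is the alignment of cells within the plane of an epithelium. Celsr cadherins bridge neighbouring cells, with Vangl and Prickle gathered on one side of the junction and Frizzled and Dishevelled on the opposite side. In the cochlea the pathway orients the stereociliary bundles of hair cells and takes part in the lengthening of the duct by convergent extension. Mice with mutations in Vangl2, Celsr1 or Ptk7 have misoriented hair bundles. Celsr3 is best known from neurons, where it is needed for the guidance of axons.

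The labels were checked first. Esr1 encodes the oestrogen receptor, part of which is fused to Cre in CreERT2, and its probe was well above background in 4 of 4 mutant and 0 of 4 control pools. The mutant-to-control log2 ratio of Tbx2 itself was -0.12 ± 0.098 (SD, n = 4 arrays), lower on 4 of 4 arrays, with a limma adjusted p of 0.124. Sox2 gave 0.012 ± 0.18. Median spot intensity was 263 to 292 in Cy3 and 496 to 563 in Cy5 against median backgrounds of 25 and 85 to 95, and 69.2% to 72.0% of probes were well above background in a channel. Across all tested genes the ratios correlated at r = 0.679 and 0.616 between arrays with the mutant in the same dye, and between -0.104 and 0.0708 where the dyes were swapped. The test included a dye term.

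The probes are 60 bases long, and the last 30 bases are printed for those on which the comparison within the Celsr family and the reading of the Prickle pair rest. Positions are those of the whole probe on mm9, as deposited, and sequences run 5′ to 3′ along the transcript. Capitals mark AATAAA, the hexamer that signals cleavage and polyadenylation near the end of a messenger RNA.
Celsr1, chr15:85729381-85729440, minus strand: caacacaggtgagatgatgcatctataata
Celsr2 brighter probe, chr3:108194096-108194155, minus strand: gtgtagAATAAAggctcgaggaggcaggaa
Celsr2 dimmer probe, chr3:108198512-108198571, minus strand: ctggctctctgtctatgataccctcatctg
Celsr3, chr9:108755235-108755294, plus strand: gcgctctgttttgggAATAAActtctatag
Prickle1, chr15:93329546-93329605, minus strand: agggaggtgtttAATAAAggcttAATAAAc
Prickle2, chr6:92325940-92325999, minus strand: cagaagagcaaaaactgtatcatttcgtaa

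The Celsr3 probe is the only one for this gene. It starts at base 11481 of NM_080437, and its hexamer ends 9 bases before the end of the probe. Of the 15 probes, 3 hold AATAAA, against 12.6% of all 39429 gene probes. Probes of different Celsr genes shared no run longer than 7 bases. No other gene probe on the array shared a run of 20 bases with that of Celsr3. Transcripts were labelled from their 3′ ends by the kit named in the labels, so each value describes the transcripts that contain the probed stretch near that end. The exon or untranslated region under each probe was not looked up here.

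Celsr3, the member of the atypical cadherin family most associated with axon tracts, was the gene that changed. Its normalized log2 signal in the control pools was 8.89, 8.27, 8.80 and 8.46 on arrays 1 to 4. In the mutant pools it was 7.93, 7.90, 8.09 and 7.90. Every mutant pool lay below every control pool, as 2.54% of all tested genes did. None of the other tested genes had groups apart in either direction, and 1.74% of all tested genes had every mutant pool above every control pool. The control pools labelled with Cy3, on arrays 1 and 3, read higher than those labelled with Cy5. The group means were 8.60 ± 0.29 in controls and 7.95 ± 0.091 in mutants (SD, n = 4 pools).

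Within arrays, the log2 ratio of Celsr3 in mutant over control was -0.96, -0.36, -0.71 and -0.56. The mean was -0.65 ± 0.25 (SD, n = 4 arrays), a 1.57-fold lower level, with a limma standard error of 0.053 and a 95% interval of -0.77 to -0.53. The adjusted p of limma was 0.000478 over 21042 genes. This ratio exceeded in size those of 99.6% of tested genes. The difference was larger than the spread between arrays, and all arrays had the same sign. The fitted dye effect of this probe was -0.19.

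Celsr3 was a dim probe. Its raw signal was 4.08 to 13.3 times the local background in control channels and 3.61 to 6.49 times in mutant channels, and it was well above background in all 8 pools. The size of the difference moved with the processing. It was -0.75 with a normexp offset of 10, the setting here that altered the background step alone. It was -0.86 from Agilent's processed signals, which also differ in normalization. From the authors' value table, whose normalization is not given, it was -0.91. Celsr3 passed the test and the 1.5-fold minimum under all 15 alternatives, with adjusted p between 4.13e-06 and 0.0440 by limma. Several of these, such as the fits without a dye term or with a sex term, left its ratio at -0.65 by construction. The fold could not move in those. Without array 1 the ratio was -0.586, just past the 1.5-fold minimum, which is 0.585 in log2.

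Of the 9 tested genes, 1 passed an adjusted p of 0.05 and was lower, where 5.18% of all tested genes passed in either direction and 2.92% passed as lower. None passed as higher, which 2.26% of all genes did. That gene also met the 1.5-fold minimum, which 0.442% of all tested genes did, 0.309% as lower. At an unadjusted p of 0.05, which 20.2% of all genes passed, 2 of the 9 passed, Celsr3 and Celsr1. The median log2 ratio over the 9 was -0.027, beside 0.0024 over all tested genes. Celsr3 was also the only one of the 9 with the same sign on all arrays, which 18.2% of all genes had.

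**Figure D1:**
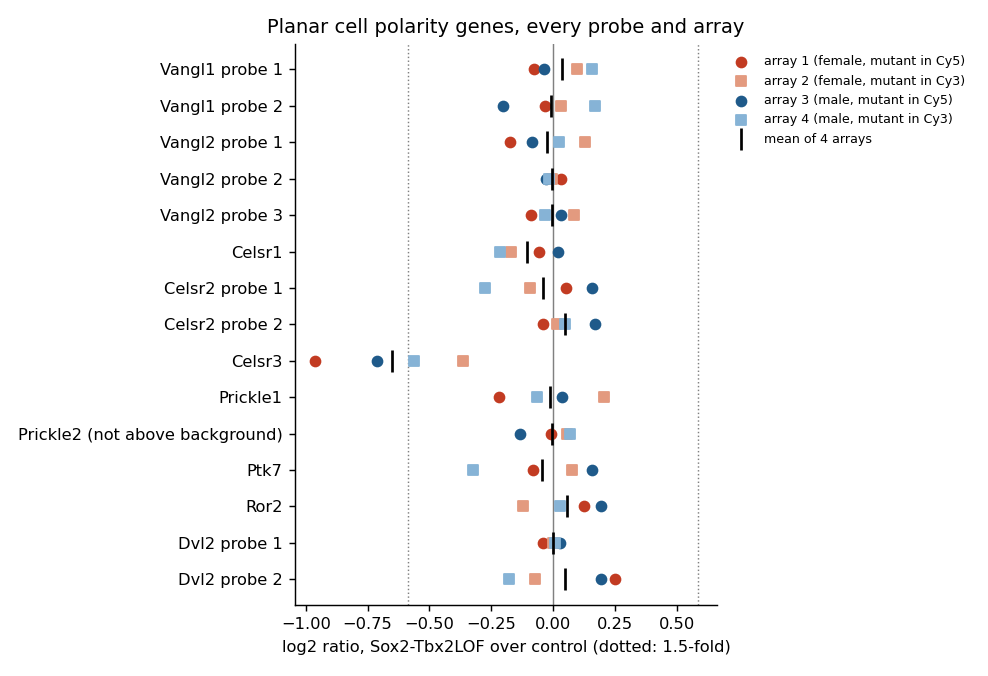
Log2 ratio of mutant over control (x axis) for each of the 15 probes of the planar cell polarity genes (rows), with 1 point for each of the 4 arrays, coloured by sex and shaped by dye, and a bar at the mean; dotted lines mark 1.5-fold. The Celsr3 points lie between -0.96 and -0.36, left of those of every other probe, and the other probes scatter on both sides of 0.

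Celsr1, the family member needed for bundle orientation in the cochlea, had a bright probe and did not pass. Control pools read 15.61, 15.69, 15.52 and 15.75, and mutant pools read 15.55, 15.52, 15.54 and 15.54. The groups overlapped, since the control pool of array 3 lay at or below the mutant pools. The ratio was -0.058, -0.17, 0.021 and -0.21 on arrays 1 to 4, with a mean of -0.11 ± 0.11 (SD, n = 4). Its 95% interval was -0.19 to -0.023 and its adjusted p was 0.147 by limma.

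Celsr2, which acts with Celsr3 in neurons and in ependymal cilia, had 2 probes. On the brighter probe control pools read 11.17, 11.16, 10.93 and 11.27, and mutant pools read 11.22, 11.07, 11.09 and 11.00. The groups overlapped, and the ratio of 0.053, -0.093, 0.16 and -0.28 changed sign with the dye. Its mean was -0.039 ± 0.19, with a 95% interval of -0.14 to 0.061 and an adjusted p of 0.675. The dimmer probe gave 0.048 ± 0.089, of opposite sign and also within its spread.

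**Figure D2:**
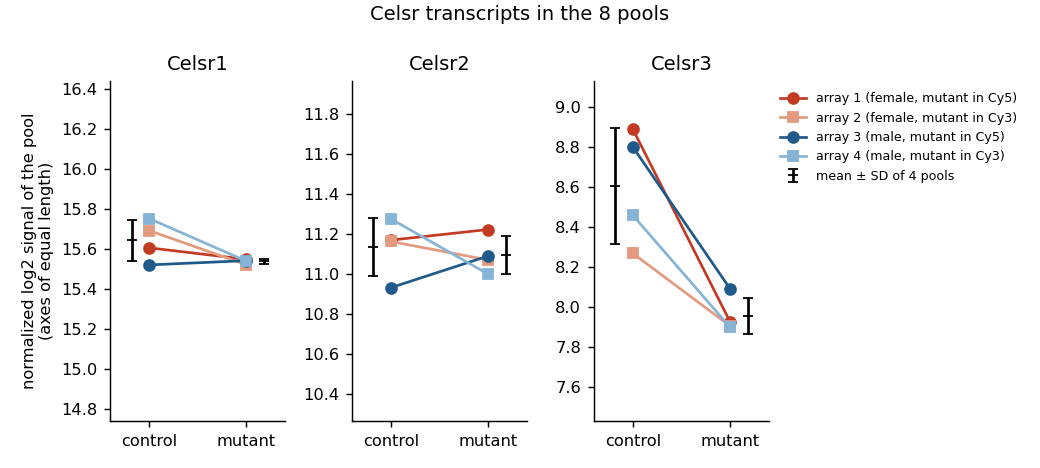
Normalized log2 signal (y axis, equal length in each panel but a different range) of Celsr1, Celsr2 (brighter probe) and Celsr3 in control and mutant pools, with a line joining the pools of 1 array and black bars for the mean ± SD of 4 pools. Only in the Celsr3 panel do all mutant pools, at 7.90 to 8.09, lie below all control pools, at 8.27 to 8.89; levels of different probes cannot be compared.

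Vangl1 and Vangl2 encode the transmembrane proteins that define one side of the polarized junction. Vangl1 control pools read 13.04, 13.08, 13.13 and 13.10, and mutant pools read 12.97, 13.18, 13.09 and 13.26. The mutant pools lay on both sides of the controls. The ratio was 0.035 ± 0.11, with a 95% interval of -0.045 to 0.12 and an adjusted p of 0.636 by limma. A second Vangl1 probe gave -0.0086 ± 0.15.

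Vangl2, the gene mutated in Looptail mice, had 3 probes. The brightest (chr1:173934594-173934653, minus strand) read 11.00, 10.92, 10.86 and 10.93 in control pools and 10.83, 11.05, 10.77 and 10.95 in mutant pools. The groups overlapped, and the ratio of -0.17, 0.13, -0.085 and 0.024 followed the dye, lower where the mutant was in Cy5. Its mean was -0.027 ± 0.13, with an interval of -0.11 to 0.061 and an adjusted p of 0.755. The other probes gave -0.0054 ± 0.026 and -0.0027 ± 0.075, which places all 3 probes near 0.

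Prickle proteins are the cytoplasmic partners of Vangl. Prickle1 read 15.03, 14.83, 14.92 and 14.88 in control pools and 14.81, 15.03, 14.96 and 14.81 in mutant pools. These ranges overlapped almost wholly. The ratio was -0.012 ± 0.18, with an interval of -0.15 to 0.12 and an adjusted p of 0.940. The Prickle2 probe was well above background in 0 of 4 control and 0 of 4 mutant pools, at 1.23 to 1.90 times the local background. No fold is given for it, and a difference in Prickle2 was not detectable on these arrays.

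Dvl2, a Dishevelled scaffold that relays the signal from Frizzled, was the most even of the 9 between mutant and control. Control pools read 12.11, 11.93, 11.91 and 11.83, and mutant pools read 12.07, 11.93, 11.94 and 11.84. The ratio was -0.0014 ± 0.028, with an interval of -0.081 to 0.079 and an adjusted p of 0.989. Its dimmer probe gave 0.048 ± 0.21, with ratios of 0.25 and 0.20 where the mutant was in Cy5 and of -0.074 and -0.18 where it was in Cy3.

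Ptk7 and Ror2 are receptor-like kinases at the cell surface, Ror2 being a receptor for Wnt5a. Ptk7 read 12.40, 12.16, 11.93 and 11.81 in control pools and 12.31, 12.23, 12.09 and 11.49 in mutant pools. The pools differed more between arrays than between genotypes. Its ratio of -0.083, 0.074, 0.16 and -0.32 had a mean of -0.044 ± 0.21, the widest spread between arrays after Celsr3, with an interval of -0.20 to 0.11 and an adjusted p of 0.781. Ptk7 rested on 2 or 3 unflagged spots per array.

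Ror2 read 13.49, 13.31, 13.23 and 13.23 in control pools and 13.61, 13.19, 13.42 and 13.26 in mutant pools. The groups overlapped. The ratio was 0.056 ± 0.14, with an interval of -0.036 to 0.15 and an adjusted p of 0.494 by limma.

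No difference between the sexes was detected for these genes. For Celsr3 the ratio was -0.66 in female and -0.64 in male pools, a difference of -0.028 with an unadjusted p of 0.803 by limma (n = 2 arrays per sex). Differences between female and male ratios ran from -0.11 to 0.079 over the 9 genes, the lowest unadjusted p was 0.211, and 0 of 9 passed at an unadjusted p of 0.05. Of all tested genes, 2.65% passed unadjusted and 0% after adjustment. With 2 arrays per sex this comparison has little power.

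The pathway beyond these genes was described by 59 reported genes in 5 lists, all of them well above background in all 8 pools. Of the 59, 3 were higher and 1 was lower at an adjusted p of 0.05. This count leaves out 1 gene that is not reported, so no share is given and nothing is read from it, and counts were not compared between the lists. In limma 0 of 13 ligands, receptors and secreted modulators passed, and 0 of 12 core genes and direct partners. At an unadjusted p of 0.05 these counts were 2 and 1. Over all tested genes the shares were 5.18% adjusted and 20.2% unadjusted, and counts of this size in lists this short are no result about the lists.

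Among the core genes and ligands, Wnt5a gave 0.058 (adjusted p = 0.426), Fzd6 -0.0096 (0.919), Dvl1 0.021 (0.838), Dvl3 0.050 (0.531) and Scrib 0.067 (0.459), as log2 ratios with limma adjusted p. Fzd3, the Frizzled receptor that acts with Fzd6 in hair cell orientation, gave -0.11 ± 0.047. It was lower on 4 of 4 arrays, with an adjusted p of 0.117, and did not pass.

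The list of the basal body and of bundle orientation is not complete here, so its genes are given without a count. Emx2 and Insc passed, and the other reported genes of this list did not. Emx2, a homeobox factor that sets the direction of hair bundles in the vestibular maculae, gave log2 ratios of 0.46, 0.26, 0.46 and 0.22. Its mean was 0.35 ± 0.13 (SD, n = 4), 1.27-fold higher in the mutant, with a limma adjusted p of 0.0011. The ratio was positive on every array. Insc encodes an adaptor of the Par3 and LGN complex that marks the bare zone of hair cells. Its ratios were -0.40, -0.049, -0.59 and -0.23, with a mean of -0.32 ± 0.23 and an adjusted p of 0.0102. It was lower on 4 of 4 arrays, and it no longer passed without the pools of array 3 (-0.27, adjusted p = 0.0869).

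Of 8 genes of the Fat and Dachsous system, a second polarity module built on large cadherins, 1 passed, where 5.18% of all tested genes did. Fat4, the receptor for Dchs1, gave ratios of 0.26, 0.20, 0.21 and 0.26, a mean of 0.23 ± 0.033 and an adjusted p of 0.0104. The values were even over the arrays. Fat4 lies on chromosome 3 at 4.36 Mb from Sox2, the locus that carries Cre in the mutants only, and the part of that position in the result was not tested. Dchs1 itself gave 0.079 (adjusted p = 0.285). Of 14 effectors and cytoskeletal genes, beside the same share of all genes, Daam2, a formin that binds Dishevelled, was the 1 that passed, at 0.21 ± 0.024 with an adjusted p of 0.0130. At an unadjusted p of 0.05 in limma, 3 of the 8 and 5 of the 14 passed, beside 20.2% of all tested genes. In lists this short such counts are no result about the lists. Without array 1 the adjusted p was 0.0761 for Fat4 and 0.0664 for Daam2, and without array 3 it was 0.0565 and 0.0858. Without the dye term the adjusted p was 0.0593 for Fat4, 0.0754 for Daam2 and 0.225 for Insc, and Emx2 was the 1 of these pathway genes that passed.

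**Figure D3:**
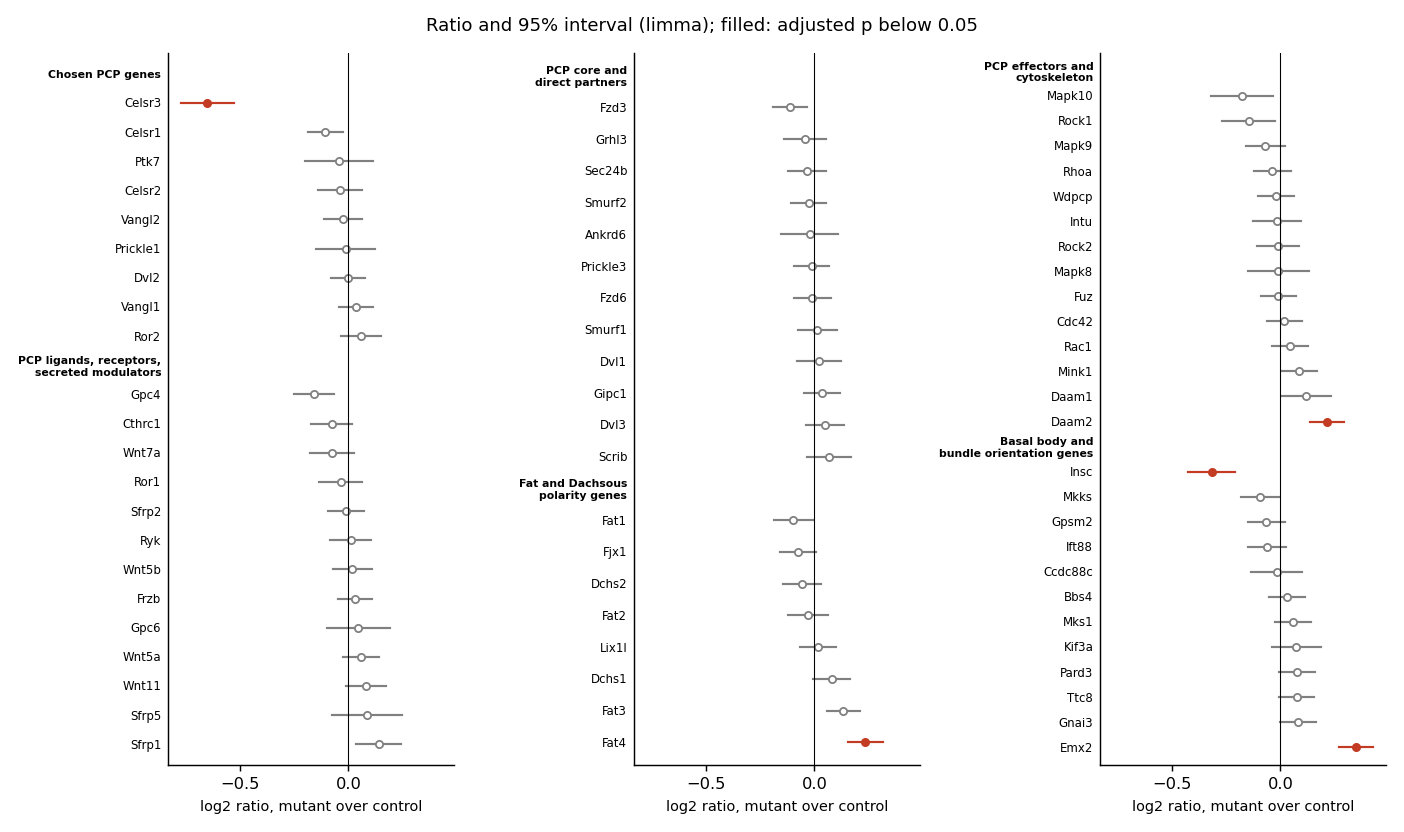
Log2 ratio of mutant over control (x axis, points) with its 95% limma interval (lines) for the 9 tested genes and for 59 further pathway genes, grouped by list and ordered by ratio within each; filled red points passed an adjusted p of 0.05. Celsr3 at -0.65 stands apart from Insc at -0.32 and Emx2 at 0.35, the next in size, and most intervals cross or lie near 0.

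Marker genes of the cell types that a cochlear duct pool could hold were read beside Celsr3. Most of the neuronal list was lower as well. Of 15 tested neuronal genes, 9 were lower and 2 higher at an adjusted p of 0.05, or 73.3% beside 5.18% of all tested genes, and their median log2 ratio was -0.36. The marker lists were chosen with earlier results of these data known, so this share is a description and not a test. The medians of this list were -0.34, -0.30, -0.24 and -0.42 on arrays 1 to 4. The strongest members were Stmn3 at -1.75 ± 0.45 and Stmn4 at -1.74 ± 0.32, both microtubule regulators, and the RNA-binding protein gene Elavl3 at -1.08 ± 0.36. The higher ones were Syt1 at 0.24 and Isl1 at 0.20. Summed over the list, the linear signal was 62571 to 65014 in control and 59099 to 64278 in mutant pools, ranges that overlap, and such a sum is set mainly by its brightest probes. All 15 were well above background in every pool, and the remaining list member, Neurod1, was too dim to be tested. The part of neuronal RNA in the Celsr3 result was not tested.

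Among the Schwann cell precursor genes, a list that is not complete here and is given without a count, Foxd3 was lower at -1.17, Fabp7 at -1.03 and Dhh at -0.88, while Sox10, which glial precursors share with the otic epithelium, gave 0.0099 (adjusted p = 0.917). Fabp7 and Ngfr (-0.74) of this list are also known from the cochlear epithelium, so the list does not mark 1 cell type alone. The medians of the other lists are given in parentheses. No gene passed in limma of 8 for melanocytes (median 0.013) or of 10 for blood and macrophages (0.057), where 2 and 3 passed at an unadjusted p of 0.05. These and the next counts stand beside 5.18% of all tested genes adjusted and 20.2% unadjusted. Col1a1 at 0.27 was the 1 of 12 that passed for periotic mesenchyme (0.068), and Cldn5 at 0.21 and Egfl7 at 0.17 were the 2 of 9 for endothelium (0.096). The summed signal of the endothelial list was 89338 to 93353 in control and 97511 to 101655 in mutant pools, which do not overlap, while the sums of the other complete lists did. Over the reported Schwann cell precursor genes it was 82047 to 86405 in control and 69481 to 73051 in mutant pools. Those ranges do not overlap either, with the mutant pools lower. Like the neuronal sum, both sums are set mainly by their brightest probes. Of single tested genes, 2.54% were lower and 1.74% higher without overlap. No such share was computed for sums, so nothing is read from them. Of 11 genes of prosensory and otic epithelium (0.062), the labelled tissue, all were well above background in every pool, and Gata3 was higher at 0.34 and Jag1 lower at -0.19. Of 8 hair cell genes (0.045), Myo7a was higher at 0.17 and Pvalb lower at -1.23. The part of any of these in the values of the polarity genes was not tested.

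**Figure D4:**
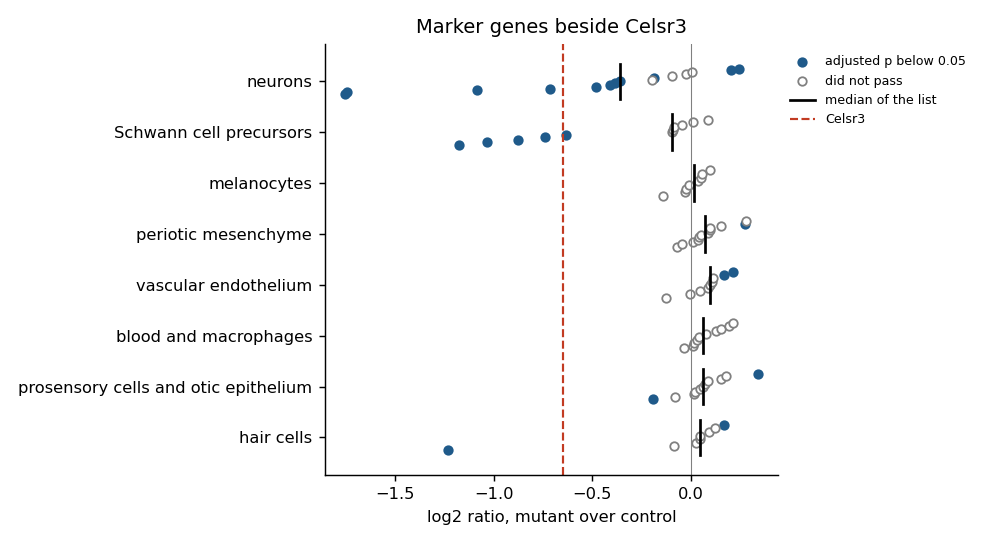
Log2 ratio of mutant over control (x axis) of each reported marker gene in 8 cell type lists (rows; the Schwann cell precursor list is not complete), filled where the adjusted p was below 0.05, with a bar at the list median and a dashed line at Celsr3 (-0.65). The neuronal median is at -0.36, and those of the other complete lists lie between 0.013 and 0.096.

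How far the passing genes held across ways of processing differed between them. The 15 alternatives are not 15 separate checks. Those that changed only the probe filter, the dye or sex term or the pairing left the ratios of these genes unchanged. Signs could not change there. The fit without a dye term and separate channels with the array as replicate block gave each gene the same adjusted p. Celsr3 and Emx2 passed in all 15 alternatives, with ratios from -0.91 to -0.59 and from 0.32 to 0.37. Fat4, Insc and Daam2 each passed in 10 of 15, and all kept their sign. None of the other 8 polarity genes passed in any alternative. Their signs were kept in all 15 for Vangl1, Vangl2, Celsr1 and Ror2, in 13 for Celsr2, Prickle1 and Ptk7, and in 10 for Dvl2.

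**Figure D5:**
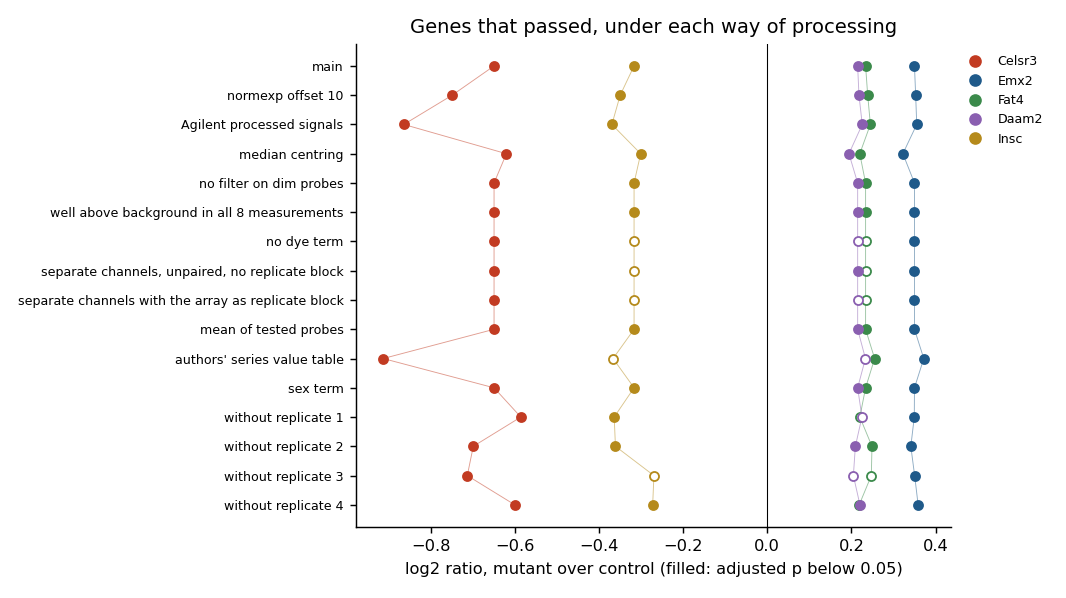
Log2 ratio of mutant over control (x axis) of the 5 polarity pathway genes that passed, under each way of processing (rows), filled where the adjusted p was below 0.05. Celsr3 stays between -0.91 and -0.59 and Emx2 between 0.32 and 0.37 with filled points in every row, whereas Insc, Fat4 and Daam2 have open points in several rows.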

How the data were processed

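RNA of 4 Sox2-Tbx2LOF and 4 control pools of E14.5 cochlear ducts was hybridised in 4 pairs to 2-colour arrays. The authors deposited the output of Agilent Feature Extraction 10.7.3.1, in which intensity values are spot brightness and local background in both dyes, not normalized. The series value table, also deposited, holds a score per probe that fits the mutant-to-control fold change with its sign (r of 0.912 to 0.942 with the ratios computed here). Its normalization is not given in the sources used here. Gene symbols and mm9 positions were taken from the files, whose header names a custom design with 4 spots per probe, which is not the Whole Mouse Genome Oligo v2 array of the methods.

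Background was corrected with normexp (offset 50), and ratios were normalized by loess within arrays in limma 3.58.1 (R 4.3.3). Flagged spots (8.29% to 8.56% of gene spots) were dropped before spots of the same probe were averaged. Levels per pool came from loess and Aquantile normalization. The test took in 27963 of 39429 probes, those well above background in 4 or more of the 8 channel measurements, where a probe counts if at least 50% of its unflagged spots do. The brightest tested probe stood for a gene.

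Ratios of 21042 genes were fitted with lmFit and eBayes, with genotype and dye terms and Benjamini-Hochberg adjustment. A gene passed at an adjusted p of 0.05, and the 1.5-fold minimum is that of the methods. The fit had 2 residual and 5.65 prior degrees of freedom. The methods used an unpaired comparison, run here as an alternative on separate channels. The methods call the pools independent, and each pool pairs with another here through its array and sex. They name Cre-negative littermates among the controls of the study. Whether mutant and control pools shared litters is not given. With 4 arrays the precision is limited.

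The genes and lists were chosen with earlier results of these data known. Named genes were the 10 chosen genes with every probe, the label checks Tbx2, Sox2 and Esr1, the pathway genes Fzd3, Fzd6, Dvl1, Dvl3, Scrib, Wnt5a, Fat4 and Dchs1 whatever their value, up to 12 pathway genes with the largest ratio among those that passed, and up to 3 genes of each marker list with the largest ratio. Beyond that rule, and after their values were seen, Syt1 and Isl1 were named as the neuronal genes that were higher and Sox10 and Ngfr beside the Schwann cell precursor genes, and in the lists after Schwann cell precursors only the genes that passed were named. After their values were seen, 1 gene of the basal body and bundle orientation list and 1 gene of the Schwann cell precursor list were taken out and are not reported here. The count of the 59 pathway genes leaves the first of them out. The script was tested on simulated data.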

Additional observations from a re-analysis of the deposited data

Results flagged for a closer look

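The level of Celsr3 in the mutant pools had 1 pool apart from the rest. The male mutant pool of array 3 read 8.09 in normalized log2 signal, where the other mutant pools read 7.90 to 7.93. The gap was 0.857 of the range of the 4 pools, above Dixon's 95% critical value for a group of that size. This pool still lay below the lowest control pool, at 8.27. Levels of the 10 genes in control and mutant pools and their ratios made 30 groups, of which this was the 1 past the value, while chance puts about 1 in 20 groups past it. Without array 3 the Celsr3 ratio was -0.71.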

How the results depend on the processing

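The counts of polarity genes that passed (0 higher, 1 lower) and met 1.5-fold (1) were the same under all 15 alternatives, and the gene was Celsr3 each time. Several alternatives left its ratio unchanged by construction, so these are not 15 separate checks. Of the 59 further pathway genes, 3 passed as higher and 1 as lower. The higher count was 1, Emx2, without a dye term and in separate channels with the array as a replicate block. It was 2 in unpaired separate channels and from the authors' table, 4 with the mean of the tested probes (Fat3 added), and 1 to 3 when each array was left out in turn (1 without array 1 or 3). The lower count was 0 without a dye term, 0 in separate channels unpaired with no replicate block, 0 in separate channels with the array as a replicate block and 0 from the authors' value table. With an array left out it ran from 0 (without array 3) to 2 (without array 2). The median ratio of the 9 polarity genes ran from -0.080 (without array 2) to 0.015 (without array 1).

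Each ratio pairs the pools of 1 array, and the replicate block in separate channels, which holds that pairing but no dye term, passed 90 genes as higher and 174 as lower. The unpaired comparison passed 72 and 125, the values of the authors 157 and 257 and Agilent's processed signals 236 and 380, against 476 and 615 of all tested genes. The processed signals and the authors' table put 52 and 42 genes as higher and 117 and 99 as lower past 1.5-fold as well, against 28 and 65. Leaving out an array gave 122 to 635 genes higher and 231 to 643 lower. The cause of these differences was not tested. Of the values of single named genes, 329 stayed on their side of the threshold, 15 kept their direction but no longer passed, and none that had passed reversed.

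A block for slide or scan was not run, since the 4 arrays share 1 slide and 1 scan time. The low signal over background of Celsr3 and Prickle2 limits what their single probes can show.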
